A study of Caenorhabditis elegans with 40 samples.

Results

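The change with age at 25°C was measured in npr-8(ok1439) animals, which carry a deletion allele of the gene for NPR-8, a neuronal receptor of the G protein-coupled class whose mammalian relatives bind neuropeptide Y. The members are the 10 RNA-seq libraries that the sample labels assign to npr-8 at 25°C, 5 of old and 5 of young adults, out of 40 libraries in the series. The other libraries come from wild-type animals at 25°C and from both genotypes at 20°C. Each library was made from total RNA of whole animals grown on E. coli OP50, with a stranded mRNA kit. Old animals were 9 days old in the labels, and young animals 0 days old in the labels. The paper calls the young animals 1-day-old adults. All 10 libraries share the ok1439 allele, the food and the growth temperature, so that age was the labelled difference. By the paper's methods, animals kept to day 9 were washed and strained daily to retain the adults. Effects of age and of this handling cannot be told apart. The 10 wild-type libraries at 25°C, also 5 old and 5 young, served as the comparison. No source used here says whether the libraries of a group came from separate cultures, so that p-values measure the spread between these libraries, which may be technical.

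C. elegans is built of a fixed set of somatic cells that are not replaced in the adult, while the germ line keeps dividing until reproduction ends. Its epidermis secretes a collagen cuticle, which is remade at each larval molt and is still supplied with collagen in young adults. NPR-8 is expressed in the sensory neurons AWB, ASJ and AWC and is known for a role in collagen expression during infection. For the lifespan of the mutant at warm temperature, the paper places its action in AWB and AWC, and not in ASJ. In bulk RNA of whole animals, fewer cells of a type and less RNA per cell cannot be told apart.

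Between 17937504 and 30871707 fragments per npr-8 library fell on the genes used, after 106 genes with a failed or too deep status were left out, vit-2 and vit-6 among them. Levels are fragments per 1000000 scaled library fragments (CPM), with TMM scaling over the 20 libraries at 25°C. A young npr-8 library, that with index 0 in the authors' table, stood apart from its group. Its Pearson correlation with the other 4 was between 0.969 and 0.976, and its 10 most abundant genes held 3.91% of its fragments against 6.15% to 7.2% in the others. Its deviation moved with transcript length. Genes with a longest transcript under 1000 bases had a median deviation of 0.25 on the log2 scale in it, and genes of 8000 bases or more a median deviation of -1.39. The other 9 npr-8 libraries had medians between -0.1 and 0.43 over the same length classes. Counts are given with this library, and without it where that moved them. The npr-8 gene itself (chromosome X, 7377273 to 7388160 in ce10) was read in every library, at 1.86, 2.83, 2.68, 2.59 and 2.85 CPM in young and 2.7, 2.13, 2.67, 2.13 and 2.15 CPM in old npr-8 animals. Wild-type libraries held 1.64 to 3.08 CPM, and the level is that of the whole gene, so it does not check the deletion.

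**Figure D1:**
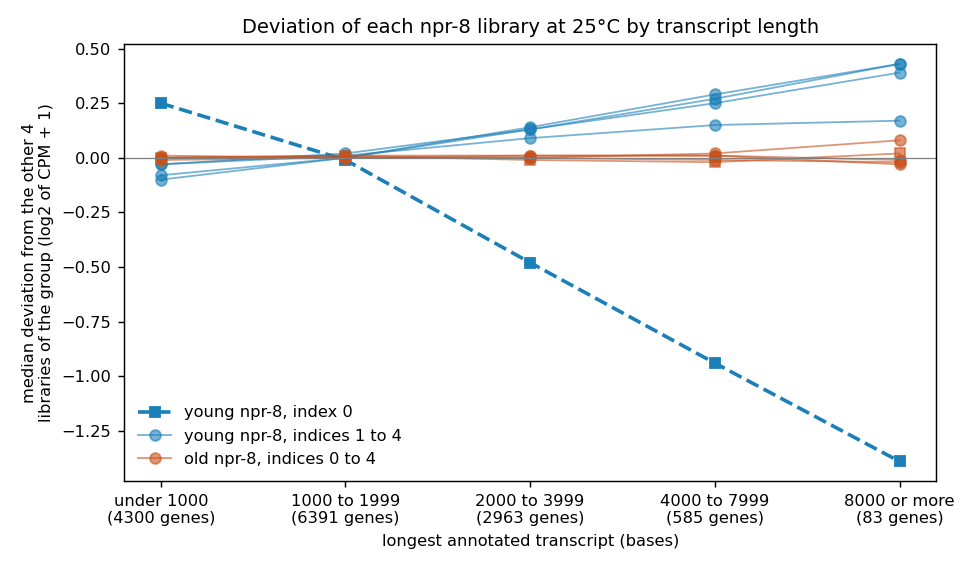
Median deviation of each npr-8 library at 25°C from the other 4 libraries of its group (vertical axis, log2 of CPM + 1) in 5 classes of transcript length (horizontal axis, bases). The dashed line is the young library with index 0, which runs from 0.25 in the shortest class to -1.39 in the longest, while the 5 old libraries stay near 0.

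Old npr-8 animals differed from young ones in a large part of the transcriptome, and more genes were lower than higher. The test was edgeR's quasi-likelihood test, adjusted over all genes by the Benjamini-Hochberg method. Genes are called higher or lower where the adjusted p lay under 0.05 and the log2 fold change was 1 or more in either direction. Of 14736 genes tested, 1531 (10.4%) were called higher and 3453 (23.4%) lower in old animals. The median log2 fold change over all genes was -0.04. When libraries were scaled by their size alone, the median moved to 0.12, with 2165 genes higher and 2936 lower. Without the young library that stood apart, 1537 genes were higher and 3573 lower. Gene lists are described by such counts and by their median, beside these shares of all genes. Where a list had 0 calls in a direction, DESeq2 at the same limits called at most 1 of its genes in that direction.

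The gene with the largest increase by the naming rule was clx-1, a collagen-related gene (chromosome IV, 7734636 to 7736312). It was read at 0, 0, 0, 0.035 and 0 CPM in young and at 20.7, 11.9, 10.9, 9.25 and 11 CPM in old npr-8 animals. The groups were far apart, with a single fragment in the young group against 1700 in the old, a ratio of 1508 with an exact counting interval of 270.3 to 59600 that covers counting error only. Next came lips-11, a member of the lipase-related family (chromosome II, 1108848 to 1110999). It went from at most 0.0957 CPM in young libraries to 31.2, 29.1, 24.7, 26.1 and 31.1 CPM in old ones (log2 fold change 9.28 ± 0.28, SE). The neuropeptide-like gene nlp-39 followed, with 2 fragments in the young group and a mean of 6.08 ± 0.839 CPM (SD, n = 5) in the old. The other 7 of the 10 largest increases were C27H5.6, scl-24, pqn-73, hch-1, T23E7.6, B0284.2 (pals-27 in RefSeq) and T22F3.11, at log2 fold changes from 4.71 to 5.92. Adjusted p was between 7.2e-11 and 1.2e-08 over the 10 genes by edgeR's quasi-likelihood test. hch-1 encodes an astacin metalloprotease known for digesting the eggshell at hatching. It rose from 0.198 ± 0.102 to 8.19 ± 1.9 CPM (SD, n = 5). In wild-type animals all 10 of these genes were called higher with age as well. clx-1 and lips-11 held 0 fragments in young wild type and were at least 20.4-fold and 38.6-fold higher in old animals. The floor for this was 3 fragments in a young library of median size, or 0.128 CPM. nlp-39 held 3 fragments there, a ratio of 141 with an exact counting interval of 47.98 to 685.9. The other 7 were higher by 2.23 to 6.85 on the log2 scale.

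The largest decreases were mostly collagens. Among the 10 largest, 8 were col genes: col-139, col-129, col-142, col-7, col-20, col-149, col-159 and col-62. col-139 (chromosome V, 4652896 to 4653944) was at 511, 1190, 1460, 1390 and 1190 CPM in young and at 5.45, 1.53, 3.92, 0.652 and 0.95 CPM in old npr-8 animals. Its log2 fold change was -8.90 ± 0.61 (SE). col-129 (chromosome IV, 12108750 to 12110223) went from a mean of 1810 ± 703 to 3.91 ± 2.56 CPM (SD, n = 5). The lowest young library of both genes was the one with index 0, and it was still far above every old library. The others of the 10 were Y47D7A.6, an uncharacterised gene with 1014 fragments in the young group and 1 in the old, and decr-1.1, a gene named for dienoyl-CoA reductase of fatty acid oxidation. decr-1.1 fell from a mean of 14.1 to 0.0609 CPM (log2 fold change -7.71 ± 0.33, SE). Adjusted p was between 2.5e-10 and 2.9e-08 over the 10 genes by the same test. Some collagens, such as col-7 and col-62, are close copies that may share reads, so that their separate values are uncertain.

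**Figure D2:**
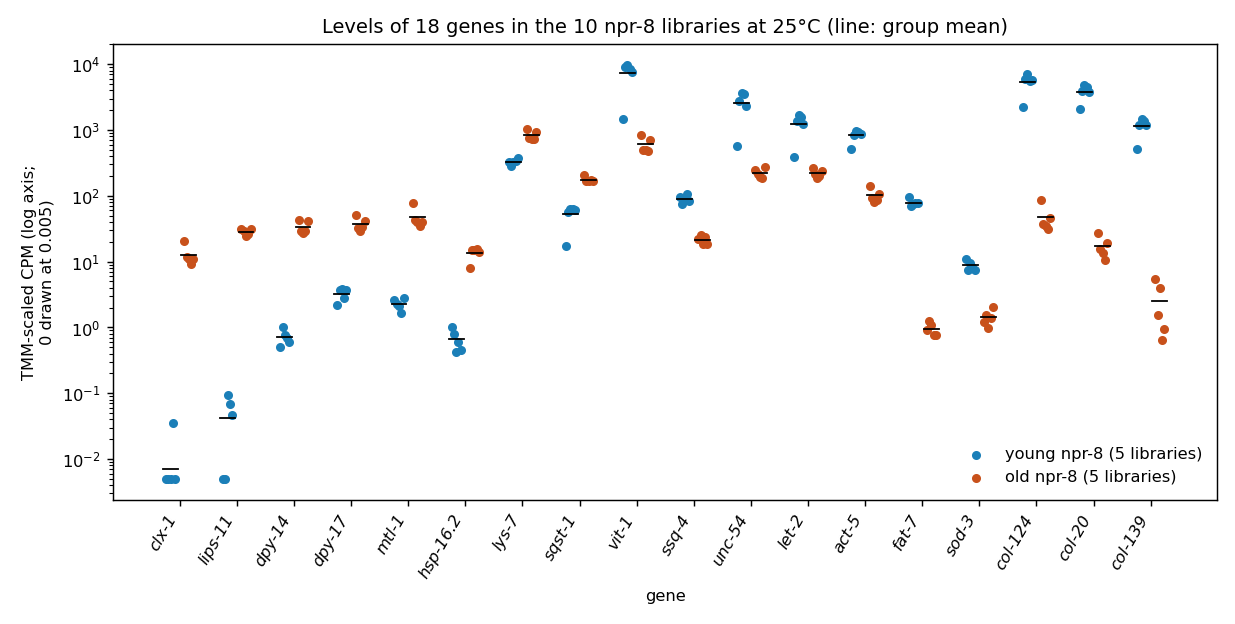
Levels of 18 genes (horizontal axis) in each of the 10 npr-8 libraries at 25°C (vertical axis, CPM on a log axis, values of 0 drawn at 0.005); points are libraries and lines are group means. The genes were picked for display. For each of the 18 genes the 5 young and the 5 old libraries do not overlap, and col-139 runs from a mean of 1150 to 2.5 CPM. Among all genes tested, 30.0% were higher and 31.2% lower in old animals without overlap.

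Genes for cuticle collagens fell as a family in old npr-8 animals. Of the 156 col genes, 115 were abundant enough to be tested, and 97 of these were called lower and 8 higher, against 23.4% lower and 10.4% higher among all genes. Their median log2 fold change was -3.57, with quartiles of -5.53 and -2.49 and a range from -8.90 to 6.42. The decrease reached the abundant members: 30 col genes had a mean over 100 CPM in young animals, and all 30 were called lower. In old animals 7 col genes had a mean over 100 CPM. Together the 156 genes took 3.41% to 6.93% of the scaled library in young animals and 0.162% to 0.36% in old animals, and the groups did not overlap. The lowest young value was that of the library with index 0. col-124, the col gene with most fragments, was at 2210, 5990, 7090, 5590 and 5850 CPM in young and at 86.9, 37.2, 34.9, 31.9 and 46.8 CPM in old animals (log2 fold change -6.83 ± 0.42, SE).

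Wild-type animals at the same temperature had 47 of 98 col genes lower and 15 higher with age, with a median of -0.61. Of the 97 col genes called lower in npr-8, 83 were tested in wild type. There 47 were lower as well, 27 were not called and 9 were called higher. The interaction of genotype and age, fitted over the 20 libraries at 25°C, found the change with age lower in npr-8 for 81 col genes and higher for 4, where 11.6% of all genes were lower and 9.05% higher. The summed col genes of young wild-type libraries lay between 2.83% and 3.64% of the scaled library, and those of old wild-type libraries between 0.252% and 0.273%.

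A list of collagens named for body shape, with dpy, rol, sqt, bli and lon genes that are required for the form of the cuticle, was mostly lower with age in npr-8 and mostly higher in wild type, and 9 of its genes were called in opposite directions. Of 19 tested in npr-8, 13 were lower and 2 higher in old animals, with a median of -2.47. In wild type 14 of 19 were higher and 0 lower, with a median of 1.41. The change with age was lower in npr-8 for 16 of the 19. rol-1 is not in this list. It was lower in npr-8, at -4.44 ± 0.55 (SE), and higher in wild type, at 1.10, and its interval covers more than 100000 bases. dpy-4 (chromosome IV, 14981596 to 14996198) was at 8.73, 35.3, 58.8, 50.6 and 24.7 CPM in young and at 6.47, 2.09, 2.83, 2.02 and 1.51 CPM in old npr-8 animals. In wild type it was at 1.27 to 3.15 CPM in young and 3 to 7.38 CPM in old animals. Thus old animals of both genotypes held overlapping ranges, and the young npr-8 libraries were the high ones. bli-2 had the same arrangement, with means of 9.27 and 0.843 CPM in young and old npr-8 against 0.557 and 1.44 CPM in young and old wild type. The interaction was -5.04 for dpy-4 and -4.92 for bli-2.

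The 2 body shape collagens that went the other way were dpy-14 and dpy-17. dpy-17 (chromosome III, 5107294 to 5108404) was at 2.21, 3.72, 3.83, 2.8 and 3.77 CPM in young and at 51.2, 32.7, 29.5, 33.5 and 41.1 CPM in old npr-8 animals. Its log2 fold change was 3.52 ± 0.20 (SE) in npr-8 and 1.0 in wild type, where young libraries already held 17.6 to 26.7 CPM. dpy-14 rose from 0.718 ± 0.197 to 34.1 ± 7.51 CPM (SD, n = 5), against 10.9 to 44.0 CPM in wild type. Their interactions were 2.54 and 3.58. The authors' interval of dpy-14 covers more than 100000 bases and overlaps other genes.

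**Figure D3:**
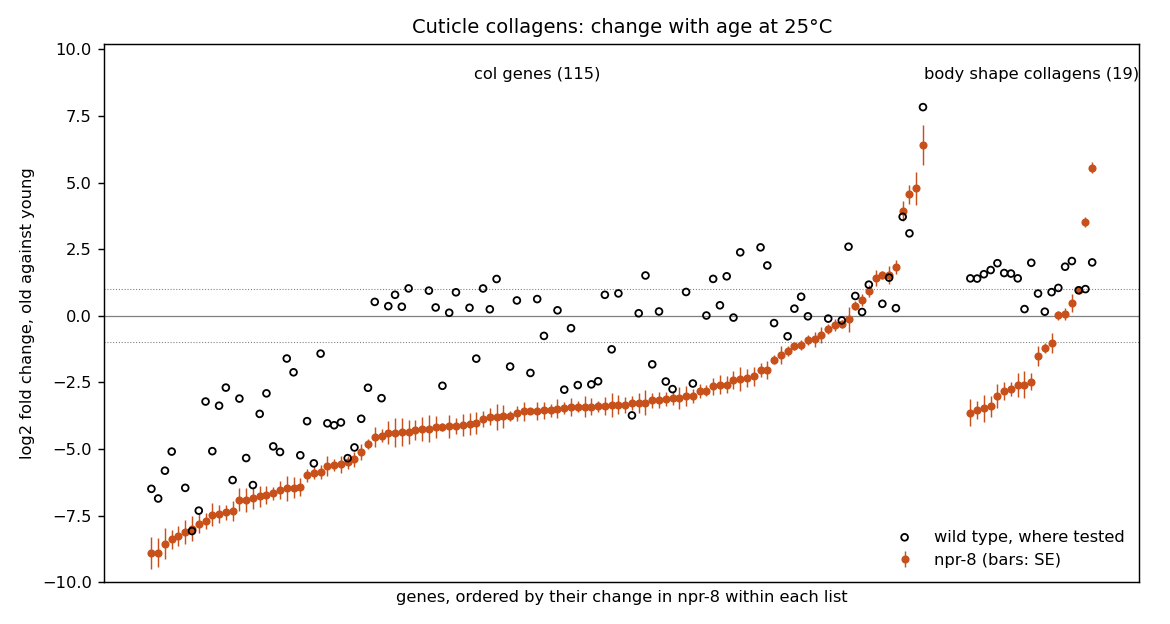
Log2 fold change of old against young animals at 25°C (vertical axis) for 115 col genes and 19 body shape collagens, ordered by their change in npr-8 (filled points, bars are SE), with wild type as open points. Most filled points lie under -1, whereas 14 of the 19 body shape collagens lie above 1 in wild type; dotted lines mark 1 and -1.

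Enzymes that modify and process collagen fell as well, with 6 of 10 lower, 0 higher and a median of -1.39. pdi-2, a subunit of prolyl 4-hydroxylase, went from a mean of 788 to 279 CPM (log2 fold change -1.51 ± 0.20, SE), and mlt-7, a peroxidase of cuticle crosslinking, from 49.4 to 11.3 CPM. Cuticlins, the non-collagen proteins of the cuticle, went the other way: 14 of 29 were higher and 4 lower, with a median of 0.92. noah-1, an apical matrix protein, rose from 10.7 to 35.3 CPM (1.72 ± 0.28), while cut-4 fell by 4.08 on the log2 scale. In wild type 16 of 28 cuticlins were higher and 4 lower. Of 56 hedgehog-related and patched-related genes, many of them epidermal, 10 were higher and 28 lower in npr-8, and 16 of 51 were higher and 10 lower in wild type. ptr-22, a patched-related gene, rose by 4.36 ± 0.15 (SE). Marker genes of the hypodermis, the worm's epidermis, did not fall as a list. Of 7 tested in npr-8, 2 were higher and 1 lower, 6 were positive, and the median was 0.79. Without the young library that stood apart 1 was higher and 1 lower. In wild type 1 of 7 was higher and 1 lower, with a median of 0.12. The abu genes, which encode prion-like repeat proteins of the pharyngeal cuticle, had 1 of 6 lower and 0 higher in npr-8, with a median of -0.22 (2 lower and a median of -0.57 without the young library that stood apart). In wild type 4 of 5 were higher and 0 lower, with a median of 2.13, and the change with age was lower in npr-8 for 6 of 6. abu-13 held 2.65, 4.37, 6.7, 6.71 and 4.47 CPM in young npr-8 and 2.28 to 3.16 CPM in old npr-8 libraries, so the groups overlapped. Young wild-type libraries held at most 0.639 CPM.

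Muscle and basement membrane genes fell in old npr-8 animals. Of 20 body wall muscle genes 16 were lower and 0 higher, with a median of -2.86. unc-54, the major myosin heavy chain of body wall muscle (chromosome I, 14856170 to 14863439), was at 569, 2800, 3630, 3560 and 2360 CPM in young and at 249, 217, 195, 190 and 273 CPM in old animals. The groups did not overlap, although the young library with index 0 was lower than the rest. tnt-2, a troponin T, fell from a mean of 514 to 32.6 CPM (log2 fold change -3.99 ± 0.28, SE). Without the young library that stood apart, 17 of 20 were lower and the median was -3.10. Of 16 basement membrane genes 13 were lower and 0 higher, with a median of -1.76. let-2, an alpha chain of type IV collagen (chromosome X, 16380950 to 16389255), was at 395, 1380, 1670, 1580 and 1230 CPM in young and 269, 216, 188, 201 and 240 CPM in old animals. unc-52, the perlecan that anchors muscle, fell by 3.68 on the log2 scale, from a mean of 564 to 44.5 CPM. Pharyngeal genes had 9 of 10 lower, with myo-1, a pharyngeal myosin, at -1.95 ± 0.41 (SE). Its groups overlapped through the young library with index 0, at 10.1 CPM, against 13 to 16.7 CPM in old libraries. In wild type 16 of 20 body wall muscle genes, 9 of 16 basement membrane genes and 5 of 9 pharyngeal genes were lower with age. The interaction was called for 1 of 20 muscle, 1 of 16 basement membrane and 4 of 10 pharyngeal genes, all lower in npr-8.

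Genes of the intestine fell too. Of 7 intestinal marker genes 6 were lower and 0 higher, with a median of -2.71. In wild type 5 of 7 were lower and 0 higher, with a median of -1.79, and the interaction was lower in npr-8 for 3. act-5, the actin of intestinal microvilli, was at 522, 853, 961, 930 and 880 CPM in young and at 142, 93.3, 82, 86.8 and 106 CPM in old npr-8 animals. pho-1, an intestinal acid phosphatase, fell by 4.15 ± 0.17 (SE) and ifb-2, an intermediate filament of the intestine, by 3.14 ± 0.25. Lipid enzymes followed: 8 of 16 fatty acid desaturases and elongases were lower and 0 higher. fat-7, a stearoyl-CoA desaturase (chromosome V, 7151428 to 7153112), was at 94.5, 69, 76.3, 78.3 and 77 CPM in young and at 0.917, 1.24, 1.09, 0.771 and 0.774 CPM in old animals. Its log2 fold change was -6.39 ± 0.17 (SE) in npr-8 and -2.79 in wild type, where old libraries kept 12.4 to 15.4 CPM, and the interaction was -3.57. The elongases elo-2 and elo-5 fell by 3.76 and 3.16 on the log2 scale. fat-2, a delta-12 desaturase and the most abundant of the list, was at a log2 fold change of -0.65 and was not called. nhr-114, a nuclear hormone receptor gene (chromosome V, 4181570 to 4191494), was at 125, 274, 298, 260 and 290 CPM in young and at 7.8, 5.04, 5.2, 6.02 and 6.86 CPM in old animals. Of 186 nuclear hormone receptor genes 46 (24.7%) were lower, near the 23.4% of all genes, and 7 (3.76%) higher.

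Detoxification families were mostly lower. Among glutathione S-transferases 22 of 35 were lower and 1 higher, with a median of -1.33, and among UDP-glucuronosyltransferases 32 of 59 were lower and 4 higher, with a median of -1.08. gst-26 fell from a mean of 62.9 to 4.2 CPM and ugt-22 from 345 to 27.3 CPM. Cytochrome P450 genes were divided: 22 of 60 were lower, 14 were higher, and the median was -0.24. cyp-35A3 fell from 28 ± 6.68 to 0.455 ± 0.087 CPM (SD, n = 5), and its relatives cyp-35A2 and cyp-35A5 fell by 3.89 and 3.84 on the log2 scale. These 3 genes are related copies whose reads may be shared. In wild type 11 of 31 glutathione S-transferases, 17 of 59 UDP-glucuronosyltransferases and 13 of 58 cytochrome P450 genes were lower with age.

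Genes of digestion and innate immunity went both ways. Lysosomal proteases of the asp and cpr families had 14 of 21 lower and 3 higher, with a median of -1.56. Wild type had the same counts, with a median of -1.45. In npr-8 asp-2, an aspartyl protease, fell from a mean of 749 to 67.1 CPM, and asp-6, the most abundant, was at -0.97 and was not called. Saposin-like genes, which encode membrane-lytic peptides, had 11 of 16 lower and 1 higher, and 3 higher without the young library that stood apart. Of 13 lysozyme genes 7 were lower and 4 higher. lys-7 held 330, 285, 322, 341 and 375 CPM in young and 1050, 752, 743, 722 and 927 CPM in old npr-8 animals, so it rose without overlap (log2 fold change 1.32 ± 0.14, SE), while lys-4 fell by 3.47. C-type lectin genes had 55 of 114 lower and 15 higher, with a median of -0.89. clec-47 fell from a mean of 81.8 to 3.94 CPM in npr-8 and was at -0.66 in wild type, where it was not called. irg-2, an infection response gene, rose by 3.63 ± 0.13 (SE). Epidermal antimicrobial peptides of the nlp-24 to nlp-34 and cnc groups had 7 of 18 higher and 8 lower in npr-8, and 10 of 17 higher and 3 lower in wild type. The change with age was lower in npr-8 for 11 of 18 of them and higher for 0. nlp-26 fell by 5.03 in npr-8 and 2.24 in wild type.

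The major sperm protein genes fell in old npr-8 animals. Major sperm protein genes and their ssp and ssq relatives were called lower in 40 of 40 cases, with a median of -2.50. They encode near-identical proteins, so reads may be shared among them. ssq-4 held 94.6, 75.5, 86.7, 105 and 84.5 CPM in young and 21.8, 25, 18.8, 23.5 and 18.7 CPM in old npr-8 animals. Young and old wild-type libraries held 25.2 to 37.6 and 1.48 to 1.9 CPM. The 46 genes summed to 818 to 1110 CPM in young and 148 to 189 CPM in old npr-8 libraries, and to 300 to 489 and 20.2 to 25.1 CPM in wild type. The decrease was smaller in npr-8, with an interaction called higher for 33 of 40 genes and lower for 0. Of 20 spe and fer genes, which act in sperm formation, 2 were higher and 2 lower, and without the young library that stood apart 3 and 4. fer-1, a ferlin of sperm organelle fusion, rose by 1.96 ± 0.29 (SE) in npr-8 and was not called in wild type, at 0.14.

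Oocyte and eggshell genes were positive in 28 of 28 cases in npr-8, but small in size: 2 were called higher and 0 lower, with a median of 0.52. Both calls, mei-1 at 1.10 and egg-4 at 1.01, were lost without the young library that stood apart, with a median then of 0.34. The most abundant member, the eggshell proteoglycan gene cpg-2, was at 0.47 ± 0.18 (SE) and was not called. Genes of DNA replication and mitosis were positive in 26 of 26 cases with 0 called, and 10 P granule genes also had 0 called. Unadjusted p by edgeR was under 0.05 for 25 replication and mitosis genes and for 4 P granule genes. Among all genes tested it was so for 11243 of 14736. DESeq2 called 0 of the replication and mitosis genes and 1 of the P granule genes. Of 21 meiotic chromosome genes 4 were higher, among them rec-8, a meiotic cohesin, at 1.17 ± 0.18 (SE), and 2 without the young library that stood apart, where rec-8 was at 0.97. Histone genes had 11 of 23 higher and 2 lower in npr-8, and 0 of 18 higher and 2 lower in wild type. his-24, a linker histone, was at 7.37, 16, 16.6, 10.1 and 12 CPM in young and at 52.7, 39.7, 31.4, 36 and 40.5 CPM in old npr-8 animals. In wild type it was at 55.5 to 88.3 CPM in young and 60.1 to 67.4 CPM in old animals, so the young npr-8 libraries were the low ones (interaction 1.86).

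Of the vitellogenins, the yolk proteins made in the intestine, 3 of the 4 tested were lower and 0 higher. vit-2 and vit-6 were not tested, since they had been left out for their status. In wild type 3 of the 4 were lower as well, with a median of -1.91 against -2.42 in npr-8. vit-1 was at 1470, 8980, 9840, 8360 and 7550 CPM in young and 846, 505, 497, 480 and 702 CPM in old npr-8 animals (log2 fold change -3.59 ± 0.42, SE). vit-5, the most abundant of the 4 tested, was at 2580, 16400, 18000, 15700 and 13900 CPM in young and 11600, 7290, 7500, 6940 and 9720 CPM in old npr-8 animals. These groups overlapped through the young library with index 0, and vit-5 was not called, at -0.64 ± 0.39 (SE). Vitellogenin genes are alike in sequence and their reads may be shared.

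Pan-neuronal, transmitter, neuropeptide and neuropeptide receptor genes all had negative medians in old npr-8 animals, to unlike extents. Of 21 pan-neuronal genes 4 were lower, a smaller share than the 23.4% of all genes, and 0 higher. Their median was -0.48, and 18 were negative. One of the positive genes was snb-1, a synaptobrevin, at 0.50 and not called. Of 13 genes for transmitter synthesis and loading 7 were lower and 0 higher, with a median of -1.32. cat-4, the GTP cyclohydrolase of dopamine and serotonin synthesis, held 84, 51.6, 53.4, 64.6 and 61.9 CPM in young and 11.2, 12, 11.7, 11.7 and 12.5 CPM in old animals. bas-1, the aromatic amino acid decarboxylase of both transmitters, fell by 2.44 ± 0.12 (SE). Neuropeptide genes of the flp family had 8 of 26 lower and 1 higher, and those of the nlp family 14 of 28 lower and 1 higher, with medians of -0.70 and -1.01. In wild type these were 0 of 26 lower and 2 higher, and 1 of 28 lower and 1 higher. Among them the change with age was lower in npr-8 for 8 of 27 flp and 7 of 29 nlp genes. nlp-40, a peptide released from the intestine to time defecation, fell by 1.10 ± 0.15 (SE) in npr-8 and was not called in wild type, at -0.37. Neuropeptide receptor genes had 20 of 70 (28.6%) lower, near the 23.4% of all genes, and 4 (5.71%) higher.

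Of the 17 insulin-like peptide genes tested, 5 were higher and 2 lower. ins-19 held 1 fragment in the young npr-8 libraries and 6.11, 8.8, 7.15, 7.89 and 9.81 CPM in the old ones. Young wild-type libraries held 0.282 to 0.809 CPM and old ones 12.1 to 16.4 CPM, and the authors' interval of the gene covers more than 100000 bases. Chemoreceptor genes passed the filter in only 60 of 1318 cases, with 18 higher and 21 lower. When the young library that stood apart was left out, 24 of 66 were higher and 19 lower. Genes of sensory cilia had a median of 1.06, the highest of the 54 lists with every library used. Without the young library that stood apart it was 1.05, and that of the cuticlins 1.09. Of the cilia genes 10 of 19 were higher and 0 lower. dyf-2, a component of intraflagellar transport, rose from a mean of 2.62 to 6.53 CPM. In wild type 5 of 16 cilia genes were higher with age, and the interaction was called for 2 of 19, both higher in npr-8.

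Stress genes had no common direction. Among 10 small heat shock genes 3 were higher and 4 lower. hsp-16.2 was at 1.01, 0.79, 0.431, 0.594 and 0.46 CPM in young and at 8, 15.2, 15.3, 15.8 and 14.2 CPM in old npr-8 animals (log2 fold change 4.31 ± 0.25, SE), while hsp-25 fell by 2.36. hsp-70, an inducible chaperone, was the 1 of 18 large chaperones called higher, at 3.25 ± 0.16 (SE), with 0 lower and a median of -0.12. Without the young library that stood apart 2 were lower and the median was -0.28. daf-21, the worm Hsp90, was at 0.14 and was not called. Of 9 genes from the insulin receptor to DAF-16 only pdk-1, at a log2 fold change of 1.44 ± 0.20, and sgk-1, at -1.61 ± 0.12 (SE), were called. Of 12 genes used as reporters of the transcription factor DAF-16 3 were higher and 3 lower. mtl-1, a metallothionein (chromosome V, 6691468 to 6691815), held 2.58, 2.28, 2.1, 1.64 and 2.76 CPM in young and 78.4, 43.1, 40, 35 and 40.7 CPM in old npr-8 animals. Old wild-type libraries held 14.2 to 19.9 CPM, and the interaction was 2.15. sod-3, a mitochondrial superoxide dismutase, held 7.53 to 11 CPM in young and 0.988 to 2.04 CPM in old npr-8 libraries, so that it fell without overlap. Antioxidant genes as a list had 2 of 16 higher and 2 lower.

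Ribosomal protein genes were negative in 73 of 74 cases at a median of -0.67, and 3 were called lower and 0 higher. Together they took 8.4% to 9.74% of the scaled library in young and 5.69% to 6.33% in old npr-8 animals, and 9.28% to 9.99% and 5.85% to 6.7% in wild type. Respiratory chain genes had 8 of 28 (28.6%) lower, beside 23.4% of all genes, and 0 higher. Without the young library that stood apart 10 of the 28 were lower. Among them atp-2, a subunit of ATP synthase, fell from a mean of 2530 to 1170 CPM (log2 fold change -1.13 ± 0.25, SE). Its groups overlapped through the young library with index 0, at 964 CPM, against 1090 to 1350 CPM in old libraries. None of 30 proteasome genes and none of 61 mitochondrial ribosomal protein genes was called by edgeR. Unadjusted p by edgeR was under 0.05 for 10 and 33 of them, where it was so for 11243 of all 14736 genes tested. DESeq2 called 0 and 0. Of 17 autophagy genes 2 (11.8%) were higher, near the 10.4% of all genes, and 3 without the young library that stood apart. sqst-1, the cargo receptor of autophagy, held 17.6, 57.8, 64.1, 63.9 and 60.6 CPM in young and 206, 166, 167, 174 and 169 CPM in old animals. Genes of the F-box family fbxa, substrate adaptors of ubiquitin ligases, had 38 of 128 higher and 17 lower.

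**Figure D4:**
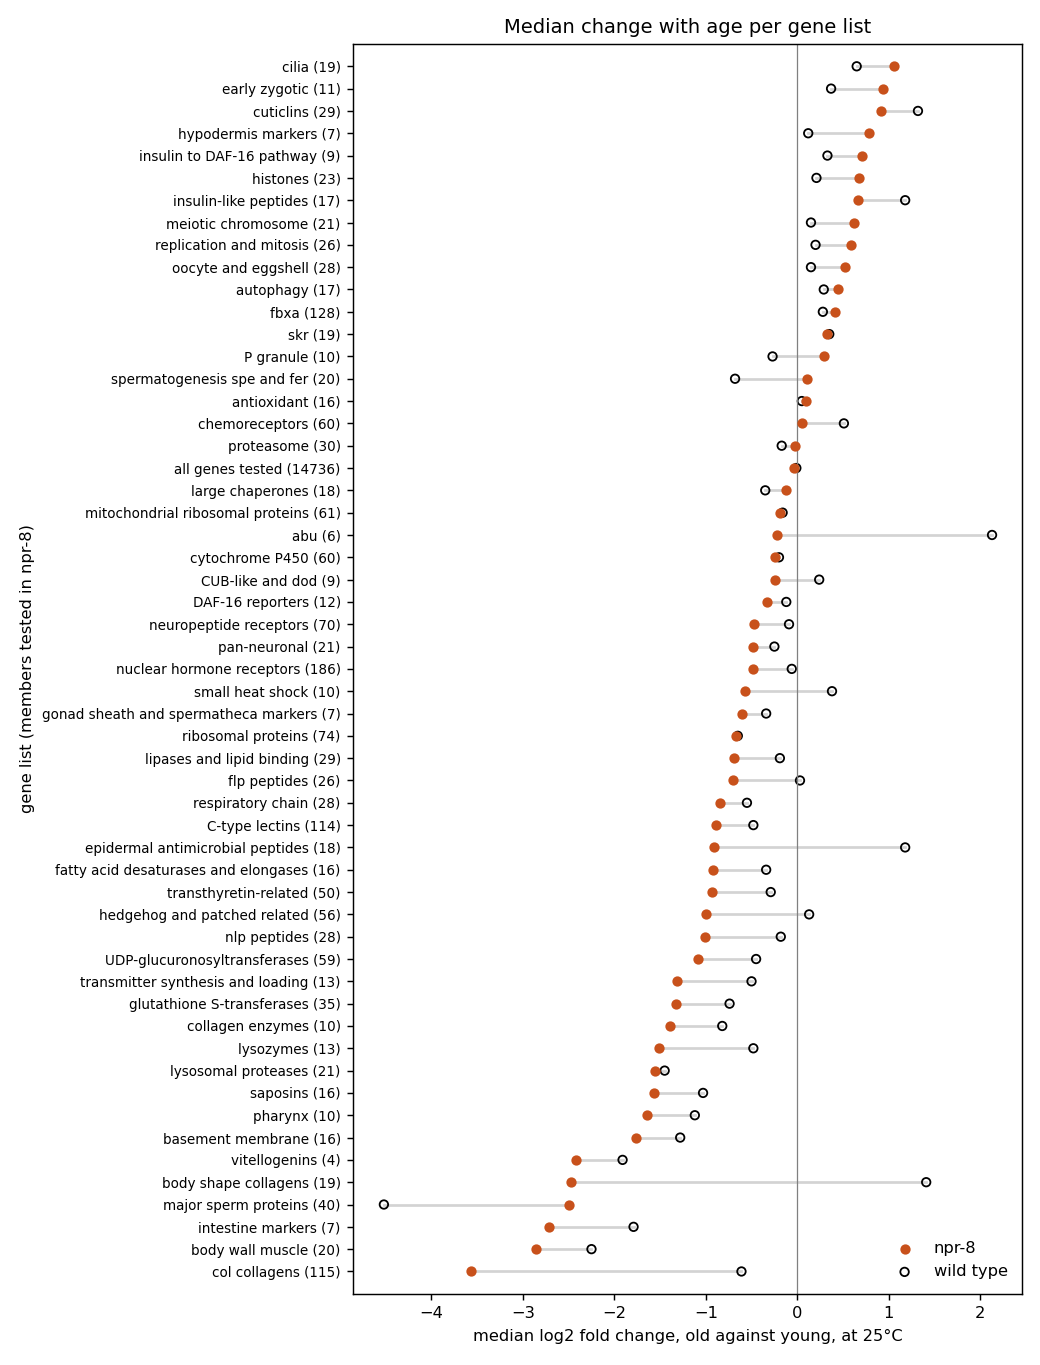
Median log2 fold change of old against young animals at 25°C (horizontal axis) for each gene list and for all genes tested (vertical axis, with the members tested in npr-8), filled for npr-8 and open for wild type. Col collagens have the lowest median in npr-8 at -3.57, body shape collagens lie at -2.47 against 1.41, and major sperm proteins at -2.50 against -4.52; the wild-type medians are over the members tested in wild type.

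The change with age was then set beside that of wild-type animals at 25°C, which share no library with the npr-8 comparison. In wild type 1256 of 13851 genes (9.07%) were called higher and 2136 (15.4%) lower. Across the 13677 genes tested in both genotypes, Pearson's r of the log2 fold changes was 0.756 and Spearman's rho was 0.754. This is a description across genes, which are not independent replicates. Of the genes called higher in npr-8 and tested in both, 52.5% were higher in wild type as well, and these 712 genes made up 60.9% of those higher in wild type. Of the genes called lower in npr-8, 52.4% were lower in wild type as well, and these 1646 genes made up 77.5% of those lower in wild type. A call in a single genotype is not in itself a difference. The difference was tested by the interaction, in which 1366 of 15090 genes had a change with age higher in npr-8 and 1744 a lower one. Of the 1444 genes lower in npr-8 and not called in wild type, 562 passed this test.

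**Figure D5:**
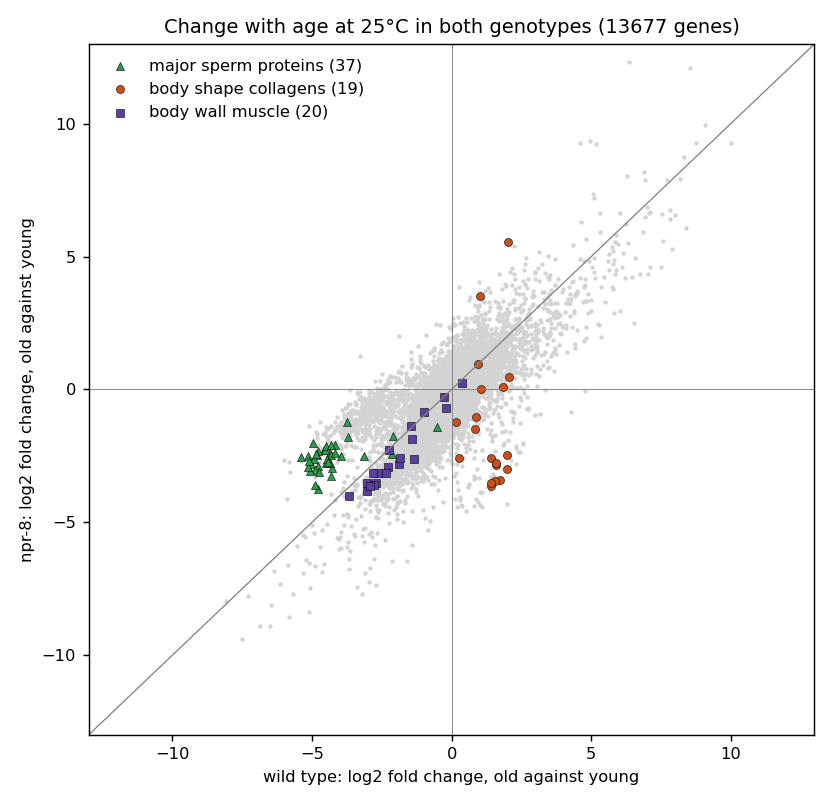
Log2 fold change of old against young animals at 25°C in wild type (horizontal axis) and npr-8 (vertical axis) for 13677 genes (grey), with the diagonal as a line. Of the 19 body shape collagens 13 lie below 0 on the npr-8 axis, and 14 were called higher in wild type, 35 of 37 major sperm protein genes lie above the diagonal, and 2 of the 20 body wall muscle genes do.

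Genes called in opposite directions were few. There were 53 genes lower with age in npr-8 and higher in wild type. All 53 were also called in the interaction, but opposite calls in the same libraries nearly fix that outcome, so it adds no support. By list, 9 were col genes, 9 were body shape collagens and 5 were hedgehog-related genes, and 30 were in none of the lists. In the reverse direction there were 8 genes. The most negative interaction that met the limits for named genes was that of K02E11.10 (chromosome V, 14240054 to 14241136), an uncharacterised gene, at -6.28. It was at 3.06, 6.6, 10, 8.5 and 4.56 CPM in young and at 0.968, 0.284, 0.263, 0.208 and 0.106 CPM in old npr-8 animals, while wild-type libraries held at most 0.323 CPM in young and 0.52 to 0.968 CPM in old animals. The next were col-175, col-49, col-138, col-73 and the cuticlin cut-2, from -5.38 to -5.12. For cut-2 the npr-8 groups overlapped, with 1.83 to 8.04 CPM in young and 2.04 to 5.45 CPM in old libraries, and wild type went from at most 0.341 to at least 3.58 CPM.

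The most positive interactions included more than a single arrangement. zip-8, a bZIP transcription factor gene (chromosome III, 6478927 to 6480893), had the largest within the limits for named genes, at 3.59. It held 0.41 to 0.743 CPM in young and 6.26 to 9.48 CPM in old npr-8 libraries, against 5.57 to 9.7 and 7.7 to 9.95 CPM in wild type, so that the young npr-8 libraries alone were low. hch-1, with an interaction of 3.18, rose in both genotypes, and its young libraries held 0.0945 to 0.325 CPM in npr-8 and 2.53 to 4.6 CPM in wild type. In another arrangement a gene fell in both genotypes and fell further in wild type. C04F12.7 went from a mean of 57 to 16.1 CPM in npr-8 and from 28.8 to 1.03 CPM in wild type. ZK1307.4, C45G9.9 and rmd-6 were of this kind too, with interactions from 2.97 to 3.35.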

How the data were processed

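RNA-seq reads of 40 libraries were processed by the authors, who aligned them to the ce10 build (HISAT2 in the paper, Bowtie2 2.3.4 and Cufflinks 2.2.1 in the submitters' processing notes) and ran Cuffdiff on pairs of groups. The deposited values used here are estimated counts, the raw fragments per gene and library, not scaled. They were rounded to whole numbers, and 77 genes had values that were not whole. The tables of young and of old animals at 25°C, 41560 genes each, were joined by gene name. Wild-type libraries in 2 tables agreed within 1 fragment or 1% for 99.99% of 13431 genes. The replicate index of the tables is not tied to the numbers in the labels.

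The tests used edgeR 4.0.16 under R 4.3.3 (filterByExpr with minimum count 10 and total 15, TMM, robust quasi-likelihood, prior count 0.125, two-sided), within the 10 libraries of a genotype, and over 20 libraries for the interaction. Standard errors were derived from the log2 fold change and the F statistic of its test (absolute change over root F). On simulated counts, 100% of the changed genes of the npr-8 comparison were recovered at each fold size. For the interaction 83.3% were recovered at a log2 change of 1, 88% at 1.5, 94% at 2 and 100% at 3. Recovery meant an adjusted p under 0.05 and the right sign, without the limit on fold change that the calls use. The simulated counts held no deviation with transcript length like that of the young library with index 0. So these shares do not measure the recovery of the calls. Transcript lengths, for 97.2% of genes, came from the Ensembl WBcel235 annotation, whose coordinates were not used. Coordinates are in ce10, from the authors' tables, in which 3295 of 16265 genes with a position cover at least 100000 bases. Genes were named by rule: the 10 largest increases and decreases with age and the 6 largest interactions each way (mean of at least 5 CPM, interval under 100000 bases, groups not overlapping for the age comparison), and from each of 54 lists up to 4 called members and the most abundant. The text names a part of these. Members and lists were chosen with earlier results of these data known. DESeq2 1.42.0, RLE factors, library size alone, other filters, a replicate block, an adjusted p under 0.01 and leaving out each library were the alternatives. For genes with 1 to 3 fragments in a group, the interval of the ratio is exact (Clopper-Pearson, 95%).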

Additional observations from a re-analysis of the deposited data

Results flagged for a closer look

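Libraries that lay apart from the others of their group were looked for among the 5 young and the 5 old npr-8 libraries, over the library measures and 93 named genes. The measure is the gap of the highest or lowest library to its neighbour as a share of the group's range, with a limit of 0.71, which chance passes in about 1 in 20 groups. In the young group the TMM factor of the library with index 0 was the highest, 1.121 (gap share 0.802). That library was the lowest, with its gap share, for act-5 (0.754), asp-6 (0.776), atp-2 (0.765), col-139 (0.717), cpg-2 (0.73), cut-4 (0.786), daf-21 (0.79), fer-1 (0.781), hsp-25 (0.726), mei-1 (0.751), mlt-7 (0.753), nhr-114 (0.781), npr-8 (0.732), pdi-2 (0.771), rec-8 (0.858), sqst-1 (0.864), T22F3.11 (0.777), unc-52 (0.712), vit-1 (0.727) and vit-5 (0.734). It was the highest for bas-1 (0.742), elo-5 (0.936), gst-26 (0.74), nlp-26 (0.744) and pho-1 (0.821). The young library with index 2 was the highest for pqn-73 (0.788). clx-1 and ins-19 were above 0 only in the library with index 3 (gap share 1.0), at 0.035 CPM each. In all 28 genes were outlying in the young group, 25 of them by index 0.

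Among the old libraries, 15 genes were outlying, 12 of them by the library with index 0, which was also the shallowest. It was the highest for K02E11.10 (0.793), atp-2 (0.744), clec-47 (0.713), clx-1 (0.766), col-124 (0.729), cut-2 (0.712), dpy-4 (0.734), mtl-1 (0.815), sqst-1 (0.811) and unc-52 (0.743). It was the lowest for daf-21 (0.746) and hsp-16.2 (0.799). The old library with index 4 was the highest for cyp-35A2 (0.864), and that with index 2 for col-7 (0.731). Y47D7A.6 was above 0 only in the library with index 1 (gap share 1.0), at 0.0355 CPM.

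The change with age differed between the genotypes, by the interaction term of edgeR's quasi-likelihood fit, in 1366 genes with a change higher in npr-8 and 1744 with a lower one. Among the named genes, with the log2 difference of the changes (npr-8 minus wild type), the change was lower in npr-8 for the cuticle genes col-175 (-5.38), col-49 (-5.18), col-138 (-5.17), col-73 (-5.16), cut-2 (-5.12), dpy-4 (-5.04), col-7 (-4.99), bli-2 (-4.92), col-149 (-4.47), col-62 (-4.04), col-142 (-3.3), abu-13 (-2.94), col-139 (-2.43), col-159 (-2.41), col-129 (-2.05) and cut-4 (-1.71). It was also lower for K02E11.10 (-6.28), clec-47 (-3.74), fat-7 (-3.57), nlp-26 (-2.77), nhr-114 (-2.46), cyp-35A3 (-2.17), decr-1.1 (-2), elo-2 (-1.83), lys-4 (-1.57), pho-1 (-1.5), sod-3 (-1.37), asp-2 (-1.37), gst-26 (-1.31), elo-5 (-1.29), act-5 (-1.23), ifb-2 (-1.23), ugt-22 (-1.2), cyp-35A2 (-1.12) and pdi-2 (-1.02). The change was higher in npr-8 for ins-19 (4.68), zip-8 (3.59), dpy-14 (3.58), ZK1307.4 (3.35), hch-1 (3.18), C45G9.9 (3.18), C04F12.7 (2.99), rmd-6 (2.97), dpy-17 (2.54), ssq-4 (2.27), mtl-1 (2.15), T22F3.11 (2.08), his-24 (1.86), fer-1 (1.83), pqn-73 (1.12) and ptr-22 (1.05).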

How the results depend on the processing

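The direction of the called changes of the 93 named genes held under the alternatives run, and 50 of 54 list medians kept their sign. The median of the large chaperones became 0.082 with library size alone, that of the proteasome 0.141 (0.025 with RLE size factors), that of the chemoreceptors -0.007 without old npr-8 replicate 0, and that of the spe and fer genes became -0.001 without young npr-8 replicate 4 (up to 0.172 without others), and the cause was not tested. A stricter filter, on means of 50 fragments or more, gave 1016 higher genes with age in npr-8 and 808 in wild type, where fewer genes were tested, and no filter gave 2146 higher genes in wild type. Leaving out each npr-8 library in turn gave 1531 to 1673 higher and 3453 to 3603 lower genes. Library size alone moved the split between higher and lower genes in npr-8 to 2165 and 2936. DESeq2 gave 1670 higher and 3298 lower genes. The interaction of pdi-2, pqn-73, ptr-22 and decr-1.1 lost its call in 26 settings in all, and the change with age of 5 named genes in 7.

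Blocking on the table index, a replicate block, gave 1575 higher and 3408 lower genes with age in npr-8, 1259 and 2128 in wild type, and 1368 and 1707 for the interaction. The deviations of young and old libraries with the same index had correlations from -0.333 to -0.054, so none was positive. With unlike indices the correlations ran from -0.231 to 0.386. These values cannot decide whether the index pairs the libraries, since the young library with index 0 stood apart from its group. Whether libraries with the same index shared a culture was not tested. Without the young library with index 0, an alternative added once the data had been seen, 101 of 108 list counts stayed within 1.5 times. The others were oocyte and eggshell genes higher (0), meiotic chromosome genes higher (2), spe and fer genes lower (4), abu genes lower (2), large chaperones lower (2), saposins higher (3) and hypodermis markers higher (1). Of the low genes, those with under about 10 fragments per library were removed by the filter, so that 60 of 1318 chemoreceptors could be tested.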
